A study of Mus musculus with 24 samples.

Results

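TRDV4, TRDV5, TRDJ1 and TRDJ2 were examined in T cell receptor transcripts of thymocytes: a pair of delta V segments close to the delta J segments, and both delta J segments themselves. They were chosen by name, as 4 of the 17 V and J segments listed in the delta (Tcrd) libraries, which hold 15 V rows and 2 J columns. The groups were Satb1-/- mice (the series design names them Satb1cKO, a conditional knockout, and no Cre driver is given) and wild-type mice. Both groups were on a C57BL/6 background, 4 to 12 weeks old, with 3 Tcrd libraries per genotype among 24 libraries of 4 receptor chains. The cDNA was made by 5′ RACE, which adds a common adaptor at the transcript's start, and was amplified with a primer in the constant region. Values are percentages of all V–J assignments in a library. The values hold no counts, so the depth is unknown and no counting interval is given. Satb1 itself is not measured, so the genotype labels could not be checked, and the tables hold no marker of other cell types.

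A delta chain gene is assembled by joining a V segment to one or more D segments and a J segment. The delta D, J and constant segments lie inside the alpha locus, so an alpha rearrangement removes them from the chromosome. In mice, TRDV4 joined to TRDJ2 forms the nearly invariant delta chain of the first gamma delta T cells of fetal life, which settle in skin and mucosa. That chain pairs with gamma chains that use TRGV5 or TRGV6. TRDV5 lies on the other side of the constant region in reverse orientation and is joined by inversion. TRDJ1 is the J segment used by most delta chains of adult mice.

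The 3′ ends of both V segments and the whole J segments are shown as the stretches nearest to the join. The caller of segments is not stated, so which bases an assignment rested on is not known. The sequences come from GENCODE M21 transcripts on GRCm38, read 5′ to 3′ on the coding strand. Capitals mark TANTACTGT in the V segments, which ends with the codon of the conserved cysteine, and in the J segments TTTGG, any 4 bases and GG, which holds the codons of the conserved phenylalanine and glycine. The motifs were searched on the printed strand only.
TRDV4: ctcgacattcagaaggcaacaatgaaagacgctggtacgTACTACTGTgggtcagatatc
TRDV5: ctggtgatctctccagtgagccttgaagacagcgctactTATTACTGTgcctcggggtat
TRDJ1: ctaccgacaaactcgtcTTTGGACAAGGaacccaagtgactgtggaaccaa
TRDJ2: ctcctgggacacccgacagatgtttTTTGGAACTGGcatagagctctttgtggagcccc
The printed TRDV4 end is chr14:54075456-54075515 on the plus strand, and the TRDV5 end is chr14:54148662-54148721 on the minus strand. TRDJ1 is chr14:54123138-54123188 and TRDJ2 is chr14:54136779-54136837, both on the plus strand and each a single coding exon. TANTACTGT occurs in the last 60 bases of 19.4% of the 144 annotated receptor V genes, and the J motif in 62.9% of the 70 annotated receptor J genes. From the motif to its end each J segment has 34 bases, of which 15 differ between TRDJ1 and TRDJ2, and ahead of the motif TRDJ1 has 17 bases and TRDJ2 has 25. No run of 20 bases of TRDV4 or TRDV5 occurs in any of the 177 other annotated receptor V segments and pseudogenes, so neither shares such a run with a near-identical copy.

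**Figure D1:**
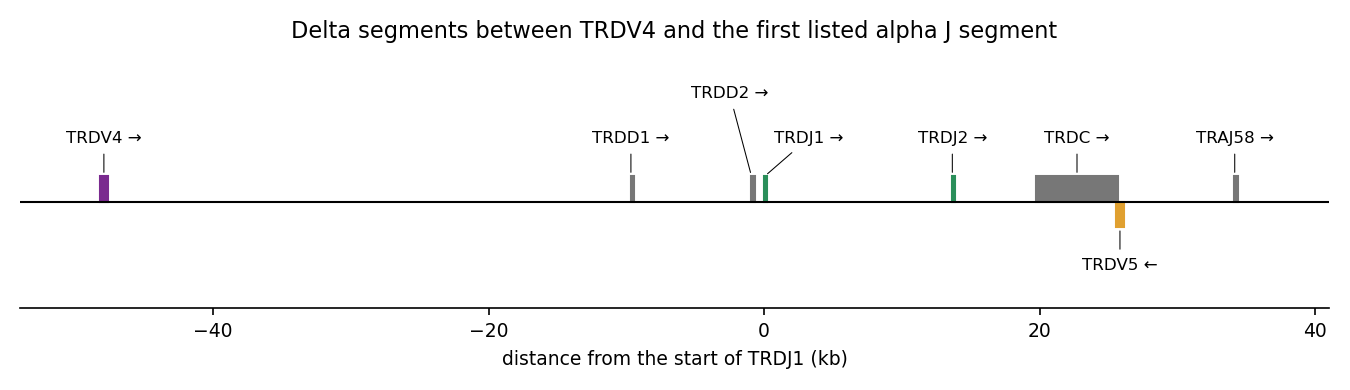
Map of the delta segments on mouse chromosome 14 (GENCODE M21, GRCm38), with distance from the start of TRDJ1 in kb on the horizontal axis; boxes above the line are on the plus strand and the box below it is on the minus strand, and the shortest boxes are widened to be visible. TRDV4 ends 47.6 kb before TRDJ1, and TRDV5 lies beyond the constant region in the opposite orientation.

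All 15 V rows of the Tcrd libraries matched an annotated gene. TRDV4 (gene at 54074905 to 54075515) was the V row nearest to the D segments from upstream, 38.0 kb before TRDD1, with no other V row between them. TRDV5 (54148662 to 54149294) was the only one of the 15 on the minus strand and the only one beyond TRDJ2, which it follows by 11.8 kb. The annotated end of the constant gene TRDC overlaps TRDV5 by 207 bases on the other strand. TRDJ1 begins 896 bases after TRDD2, and TRDJ2 a further 13.6 kb downstream, 6.01 kb ahead of TRDC.

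TRDV5 was the second most abundant delta V segment on average, and its genotype means differed by less than the spread between libraries. It held 8.02%, 8.03% and 14.3% in knockout replicates 1, 2 and 3, against 8.76%, 13.7% and 8.05% in wild-type replicates 1, 2 and 3. In each genotype 1 library was high and the other 2 lay between 8.02% and 8.76%, so the groups overlapped almost fully. The means were 10.1% ± 3.62 in the knockout and 10.2% ± 3.08 in wild type (SD, n = 3 each). The log2 fold change, here and below fitted with limma on log2(percent + 0.0128), was -0.02 (95% interval -1.08 to 1.03, adjusted p = 0.957). TRDV5 ranked 2 or 3 among the V rows in every library, and its range over the 6 libraries overlapped that of TRDV1, the next in order of mean share (6.37% to 12.1%). TRDV2-2, the leading segment, lay far above at 50.0% to 73.0%.

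TRDV4 was rare and higher in every knockout library than in any wild-type library, without passing the test. It held 0.320%, 0.541% and 0.241% in knockout replicates 1, 2 and 3, against 0.160% and 0.146% in wild-type replicates 1 and 2, and was listed at 0 in wild-type replicate 3. The means were 0.367% ± 0.156 in the knockout and 0.102% ± 0.0885 in wild type (SD, n = 3 each). TRDV4 ranked 8 to 10 among the 15 V rows in the knockout libraries, and 11 and 12 in wild-type replicates 1 and 2. In wild-type replicate 3 it was tied for last with the other rows listed at 0. The log2 fold change was 2.35 (95% interval -0.47 to 5.17, adjusted p = 0.423, limma). That value leans on the library listed at 0: it was 1.12 without wild-type replicate 3 (adjusted p = 0.457, limma). With the pseudocount raised to 0.0803 it was 1.40 (95% interval 0.08 to 2.72, adjusted p = 0.266, limma). The shares come from bulk RNA, so a change in the number of cells of a type and a change in RNA per cell cannot be told apart.

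**Figure D2:**
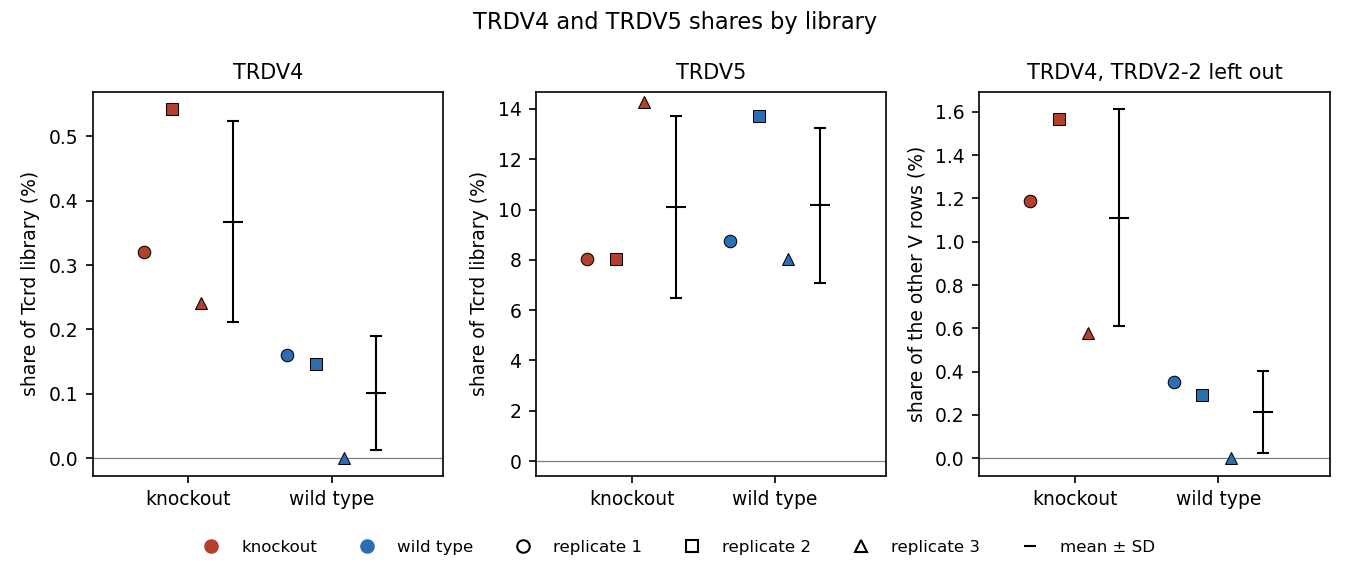
Shares of TRDV4 and TRDV5 in percent of each Tcrd library, and TRDV4 in percent of the V rows other than TRDV2-2; each symbol is a library and the bars are mean ± SD (n = 3 libraries per genotype). TRDV4 is at 0.241% to 0.541% in knockout libraries and at 0% to 0.160% in wild-type libraries, while TRDV5 overlaps between genotypes.

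Of the 13 V segments that passed a mean share of 0.1%, TRDV4 and TRDV5 among them, 0 were called in either direction by limma at an adjusted p of 0.05 (percent called 0), and 0 had an unadjusted p under 0.05. Genotypes that do not overlap were not particular to TRDV4: 4 of the 13 tested V segments (30.8%) had them, 2 of them (15.4%) higher in the knockout. The other segment higher in the knockout was TRDV2-2, at 65.6% ± 7.30 against 53.9% ± 3.54 in wild type (SD, n = 3 each). Since the shares of a library add to 100, they were also taken over the V rows other than TRDV2-2, a choice made after the data were seen. On that scale TRDV4 held 1.19%, 1.57% and 0.579% in knockout replicates 1, 2 and 3. In wild-type replicates 1, 2 and 3 it held 0.353%, 0.292% and 0%. The groups did not overlap, but how many other V segments did the same on that scale was not counted. The TRDV4 fit on that scale gave a log2 fold change of 3.21 (adjusted p = 0.760, limma). That adjusted p was larger than the 0.423 of the whole library (limma). TRDV5 held 29.7%, 23.2% and 34.4% in the knockout replicates, against 19.4%, 27.4% and 18.7% in the wild-type replicates. Those TRDV5 ranges overlapped, and the fit gave a log2 fold change of 0.42 (adjusted p = 0.909, limma), the opposite sign to that of the whole library.

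The other V segments were read as a family. Of the 3 other delta V segments (TRDV1, TRDV2-1 and TRDV2-2), 0 rose and 0 fell, with a median log2 fold change of 0.12. Of the 10 dual-use segments, which join in both alpha and delta chains, 8 were tested, 0 rose and 0 fell, and their median was -1.20. The dual-use median was -0.64 after centring each library's log values and -0.78 with TRDV2-2 left out (9 tested), and the median of the other delta V segments was 0.68 after centring. Over all 13 tested segments the median was -0.62, and after centring it was -0.07, a shift that also moved TRDV5 to 0.53 and TRDV4 to 2.91. Relative to that median TRDV5 lay above 0 and TRDV4 further above it.

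The segments whose profiles over the 6 libraries were most like those of TRDV4 and TRDV5 were named by the root mean square difference of their centred log2 shares. For TRDV5 they were TRAV21/DV12 (0.46), TRDV2-2 (0.49) and TRDV1 (0.58), all abundant segments that varied little. For TRDV4 they were TRAV13-4-DV7 (1.60), TRDV2-2 (1.67) and TRDV5 (1.72). No profile followed either segment closely. On the same scale the standard deviation of TRDV4 itself over the libraries was 1.73, little above its smallest difference. That of TRDV5 was 0.37, below each of its differences named here.

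TRDJ1 carried nearly all delta assignments in both genotypes. It held 93.9%, 98.4% and 97.9% in knockout replicates 1, 2 and 3, against 98.6%, 98.5% and 97.6% in wild-type replicates 1, 2 and 3. TRDJ2, its complement, held 6.12%, 1.56% and 2.09% in knockout replicates 1, 2 and 3, against 1.41%, 1.51% and 2.36% in wild-type replicates 1, 2 and 3. Knockout replicate 1 stood apart, and the other 5 libraries lay between 1.41% and 2.36%. The means were 3.26% ± 2.50 in the knockout and 1.76% ± 0.523 in wild type (SD, n = 3 each), which did not pass an exact two-sided permutation test (p = 0.5, adjusted p = 0.75 over 9 tests). The smallest p that 3 against 3 libraries allow is 0.1. Without knockout replicate 1 the difference was 0.0669 percentage points instead of 1.50.

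TRDV2-2 was the main partner of TRDJ2 in most libraries. It made up 90.0%, 71.4% and 65.4% of TRDJ2 assignments in knockout replicates 1, 2 and 3, against 63.6%, 61.3% and 27.3% in wild-type replicates 1, 2 and 3. TRDV2-2 was also the main partner of TRDJ1. Of TRDJ1 assignments it made up 71.9%, 65.4% and 58.3% in the knockout replicates, against 54.6%, 49.8% and 57.6% in the wild-type replicates. The TRDV2-2 row was joined to TRDJ2 in 7.54%, 1.70% and 2.34% of its assignments in knockout replicates 1, 2 and 3, against 1.63%, 1.85% and 1.13% in wild-type replicates 1, 2 and 3. With TRDV2-2 left out, the TRDJ2 share was 2.28%, 1.29% and 1.74% in the knockout replicates, against 1.13%, 1.17% and 3.98% in the wild-type replicates. On that scale the highest library was wild-type replicate 3, and the difference of means was -0.322 percentage points (p = 1, exact permutation test).

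The TRDV4 row held more TRDJ2 than the other V rows in most libraries that list it, and its fraction varied widely between libraries. In the TRDV4 row TRDJ2 took 56.0%, 0% and 33.3% in knockout replicates 1, 2 and 3, against 40.0% and 0% in wild-type replicates 1 and 2. Wild-type replicate 3, where TRDV4 is listed at 0, gives no fraction and is left out. In all V rows other than TRDV4 and TRDV5, pooled, TRDJ2 took 6.43%, 1.60% and 2.16% in knockout replicates 1, 2 and 3, against 1.33%, 1.30% and 2.53% in wild-type replicates 1, 2 and 3. The TRDV4 row exceeded the other rows in 3 of 5 libraries, and the mean gap was 23.3 percentage points (p = 0.25, adjusted p = 0.75, exact two-sided sign-flip permutation test). With 5 libraries that test cannot go below 0.0625.

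How many assignments stand behind these fractions is not known. The TRDV4 row was 25, 17 and 3 times the common step, the amount of which all values of a library are whole multiples, in knockout replicates 1, 2 and 3, and 5 and 3 times that in wild-type replicates 1 and 2. At 3 or 5 steps the fraction can take only a few values, while the 56.0% and 0% of knockout replicates 1 and 2 rest on the larger rows. Between genotypes the TRDJ2 fraction of TRDV4 was 29.8% ± 28.2 in the knockout (SD, n = 3) and 20.0% ± 28.3 in wild type (SD, n = 2). That difference did not pass (p = 1, exact permutation test), nor did the genotype difference of the gap to the other rows (7.70 percentage points, p = 1, exact permutation test), and both changed sign without knockout replicate 1 (-3.33 and -3.90) or wild-type replicate 2 (-10.2 and -12.3). Without wild-type replicate 2, the wild-type side is replicate 1 alone.

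As a share of the library, TRDV4 with TRDJ2 held 0.179%, 0% and 0.0803% in knockout replicates 1, 2 and 3, against 0.0639%, 0% and 0% in wild-type replicates 1, 2 and 3. This pair fell below the mean share of 0.1% asked of tested pairs. Fitted with no such filter, its log2 fold change was 1.40 (95% interval -1.68 to 4.47, adjusted p = 0.629 over 25 pairs, limma). TRDV4 with TRDJ1 held 0.141%, 0.541% and 0.161% in the knockout replicates, against 0.0959%, 0.146% and 0% in the wild-type replicates. Knockout replicate 2 had the highest value, and there, as in wild-type replicate 2, TRDV4 was listed with TRDJ1 alone. For this pair the log2 fold change was 2.02 (95% interval -0.80 to 4.84, adjusted p = 0.577, limma), and without wild-type replicate 3 it was 0.90.

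TRDV5 was joined to TRDJ1 almost throughout. TRDJ2 took 0.639%, 1.19% and 1.12% of the TRDV5 row in knockout replicates 1, 2 and 3, against 1.46%, 2.84% and 0.380% in wild-type replicates 1, 2 and 3. The knockout libraries fell inside the wild-type range. The means were 0.984% ± 0.301 in the knockout and 1.56% ± 1.23 in wild type (SD, n = 3 each, p = 0.5, exact permutation test). The TRDV5 row was above the other V rows in 2 of 6 libraries, both wild type, with a mean gap of -1.29 percentage points (p = 0.3125, adjusted p = 0.75, exact sign-flip permutation test). That gap was -0.39 percentage points without knockout replicate 1, and -0.63 with TRDV2-2 left out. Among the 7 V rows of at least 1% on average, TRDV5 had the second lowest mean TRDJ2 fraction, 1.27% over 6 libraries. The highest mean was that of TRAV15-2-DV6-2 at 2.78% and the lowest that of TRAV15-1-DV6-1 at 0.122%, and the library range of the first, 0% to 8.59%, covered all TRDV5 values.

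**Figure D3:**
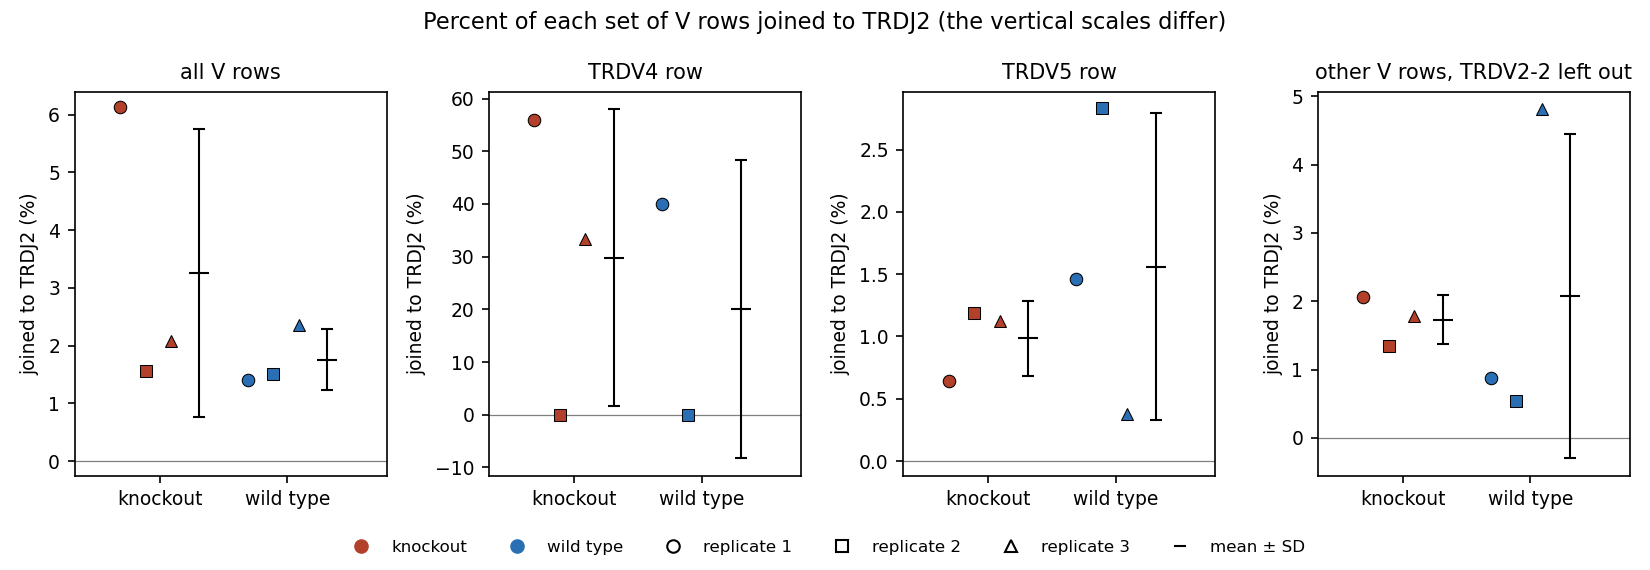
Percent of assignments joined to TRDJ2 in each Tcrd library, over all V rows, within the TRDV4 row, within the TRDV5 row and within the other V rows without TRDV2-2, on separate vertical scales; symbols are libraries and bars are mean ± SD (n = 3 per genotype, but n = 2 for TRDV4 in wild type). The TRDV4 row reaches 56.0%, while the other 3 panels stay at or below 6.12%.

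As pairs, TRDV5 with TRDJ1 held 7.97%, 7.93% and 14.1% in knockout replicates 1, 2 and 3, against 8.63%, 13.3% and 8.02% in wild-type replicates 1, 2 and 3 (log2 fold change -0.02, 95% interval -1.17 to 1.14, adjusted p = 0.975, limma). TRDV5 with TRDJ2 held 0.0512%, 0.0955% and 0.161% in the knockout replicates, against 0.128%, 0.389% and 0.0306% in the wild-type replicates (log2 fold change -0.34, 95% interval -2.65 to 1.97, adjusted p = 0.932, limma). Both pairs overlapped between genotypes. Of the 18 V–J pairs tested 0 were called (percent called 0), 0 had an unadjusted p under 0.05, and 4 (22.2%) had genotypes that do not overlap, none of them a pair of TRDV4 or TRDV5. TRDV2-2 with TRDJ2 was one of the 4, at 5.51%, 1.11% and 1.36% in knockout replicates 1, 2 and 3, against 0.895%, 0.923% and 0.643% in wild-type replicates 1, 2 and 3. TRDV4 and TRDV5 together held 10.5% ± 3.51 of knockout libraries and 10.3% ± 3.13 of wild-type libraries (SD, n = 3 each, p = 0.8, exact permutation test). With TRDV2-2 left out the difference of that sum was 8.20 percentage points instead of 0.206 (p = 0.2, exact permutation test).

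Seen from the J segments, the V partners of TRDJ2 varied more between libraries than those of TRDJ1. TRDJ2 was only 1.41% to 6.12% of a library, so its partner percentages are coarser than those of TRDJ1, and the difference was not tested. TRDV5 made up 0.837%, 6.12% and 7.69% of TRDJ2 assignments in knockout replicates 1, 2 and 3, against 9.09%, 25.8% and 1.30% in wild-type replicates 1, 2 and 3. Of TRDJ1 assignments TRDV5 made up 8.06% to 14.4% in the knockout and 8.22% to 13.5% in wild type. TRDV4 made up 2.93%, 0% and 3.85% of TRDJ2 assignments in the knockout replicates, against 4.55%, 0% and 0% in the wild-type replicates. Its part of TRDJ1 assignments was 0.150% to 0.550% in the knockout and 0% to 0.148% in wild type. TRDJ2 was listed with 8, 6 and 6 of the 15 V rows in the knockout replicates, against 6, 5 and 7 in the wild-type replicates. Knockout replicate 1, with 8, had the smallest listed value (0.0128%) and the highest TRDJ2 share (6.12%).

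**Figure D4:**
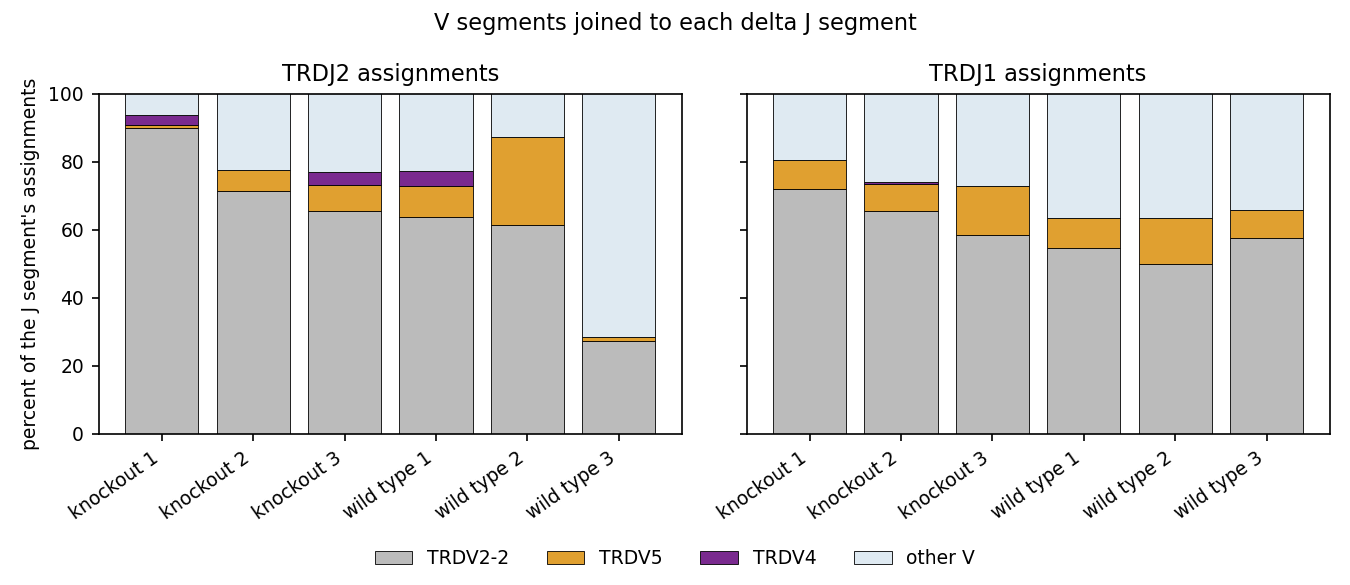
V segments joined to TRDJ2 and to TRDJ1, as stacked percentages of each J segment's assignments in each of the 6 Tcrd libraries, knockout bars left of wild-type bars. TRDV4 takes 0% to 4.55% of TRDJ2 and at most 0.550% of TRDJ1, and TRDV2-2 takes 90.0% of TRDJ2 in knockout replicate 1 but 27.3% in wild-type replicate 3.

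In the 6 alpha (Tcra) libraries, which hold 117 V rows against 43 alpha J segments, TRDV4 and TRDV5 had rows of their own but were listed at 0 with every alpha J segment. That held in all 3 knockout and all 3 wild-type libraries. The smallest value above 0 in those libraries was 0.0180%, 0.0593% and 0.117% in knockout replicates 1, 2 and 3, against 0.0158%, 0.0157% and 0.0241% in wild-type replicates 1, 2 and 3. The other delta V segments, TRDV1, TRDV2-1 and TRDV2-2, were above 0 in all 6. TRDV5, at about the delta share of TRDV1, thus differed from it in the alpha libraries: TRDV1 held 7.17% ± 3.18 of knockout and 1.01% ± 0.269 of wild-type Tcra libraries (SD, n = 3 each). The 2 chains were amplified separately, so these levels are set side by side without a test.

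The gamma segments known to pair with a TRDV4 and TRDJ2 chain were rare. In the Tcrg libraries TRGV6 held 1.57%, 0.730% and 2.49% in knockout replicates 1, 2 and 3, against 1.26%, 0.885% and 0% in wild-type replicates 1, 2 and 3. TRGV5 was above 0 only in knockout replicate 1 (0.899%) and wild-type replicate 3 (2.97%). Counting only assignments to the gamma J segment TRGJ1, TRGV6 held 1.25% in knockout replicate 3 and TRGV5 held 1.98% in wild-type replicate 3. The other listed shares of both segments were all with TRGJ1. The smallest value above 0 of these libraries was between 0.225% and 0.990%, so most of these shares are a few steps from 0, and they were not tested. Gamma and delta chains were read in separate libraries, so which chains were paired in a cell is not known.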

How the data were processed

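The deposited tables hold 1 Tcrd, Tcra or Tcrg library each, as the percent of V–J assignments that the authors computed; cells of a Tcrd table sum to 100. Reads were trimmed with fastp, per the submitters' processing notes; its version, the caller of segments, the build and annotation used, and whether reads or clonotypes were counted, are not stated in the labels. No molecular identifiers are named. Depth is unknown: the smallest value above 0 in the Tcrd libraries was 0.0128% to 0.0803%, and values were whole multiples of it (within 0.02), except in knockout replicate 2, where they were multiples of 0.0318%.

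Features averaging 0.1% or more over the 6 libraries (V segments, and V–J pairs) went into limma 3.58.1 (R 4.3.3) on log2(percent + 0.0128), the finest Tcrd library's smallest value, with Benjamini-Hochberg adjustment over all tested features of a kind. Fold changes are on this scale, and those of segments listed at 0 in a library depend on the pseudocount. Fractions and J shares were compared by exact two-sided permutation tests, adjusted over 9 tests, in Python 3.11.15 with scipy 1.17.1. No label states that each replicate is its own mouse, so p-values measure the spread between libraries only. Positions and sequences came from GENCODE M21 (GRCm38), by gene name. Always named were TRDV4, TRDV5, TRDJ1, TRDJ2 and their pairs, the 3 segments most like each V, the V rows of highest and lowest TRDJ2 fraction, and TRGV5 and TRGV6. The members and lists were chosen with earlier results of these data known. Tcrb libraries were not used here.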

Additional observations from a re-analysis of the deposited data

How the results depend on the processing

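No alternative gave a called V segment or V–J pair: the count was 0 under each of 13 alternatives for V segments and 13 for pairs by limma, with at most 2 at an unadjusted p under 0.05. TRDV4 kept a log2 fold change above 0 throughout, between 1.12 and 3.21, and adjusted p was 0.266 to 0.760 (limma). TRDV5 was near 0 and changed sign: its log2 fold change was 0.53 after centring, 0.42 with TRDV2-2 left out, and -0.30 to 0.21 when each library was left out in turn. Its pair with TRDJ1 gave 0.36, 0.43 and -0.29 to 0.21 in the same order, and its pair with TRDJ2 gave 0.031, 0.086 and -1.16 to 0.44. With TRDV2-2 left out the genotype difference in TRDJ2 was -0.322 percentage points over all V and -0.344 over the other V. On a log odds scale the genotype difference of the gap between TRDV4 and the other V was -0.73 (natural log). That scale adds 0.0128 to both J values, so the TRDV4 rows with 0 TRDJ2, in knockout replicate 2 and wild-type replicate 2, depend on the pseudocount. The gap within libraries on that scale was 2.44 (p = 0.0625, exact sign-flip permutation test), the smallest p that 5 libraries allow. With each library left out in turn, the genotype difference ranged from -10.2 to 29.8 percentage points for the TRDJ2 fraction of TRDV4, from -12.3 to 27.7 for its gap to the other V, from -1.16 to 0.0643 for the TRDJ2 fraction of TRDV5 and from -1.82 to 1.99 for the summed share of TRDV4 and TRDV5. In the ranges for the TRDV4 fraction and its gap, the wild-type side of the low end is replicate 1 alone, and that of the high end is replicate 2 alone. The cause was not tested. The pooled gap between the TRDV4 row and the other V within libraries stayed between 16.7 and 29.5 percentage points. Residual correlations gave no clear sign that equal replicate numbers mark pairs, but so few libraries cannot settle it. For libraries of equal number they were 0.0839, -0.0319 and -0.0816 over V segments and 0.437, -0.059 and 0.099 over V–J pairs, not all above 0.1. With a replicate block 0 V segments and 0 pairs were called by limma, the same as without it. The TRDJ2 share differed by 1.50 percentage points (p = 0.75, exact sign-flip permutation test over 3 pairs). Neither that test nor the main test of 3 against 3 libraries can reach 0.05, so they cannot show whether the block matters for that share. The planned tests of the Tcra libraries were not run, because TRDV4 and TRDV5 are listed at 0 in all 6. Resolution limits TRDV4: in 3 libraries its row is at most 3 times the smallest listed value.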
